A study of Homo sapiens with 11 samples.

Results

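The genes described here are 29 genes of cholesterol synthesis and of its control by the sterol regulatory element-binding proteins (SREBPs), with 4 genes of fatty acid synthesis that the same factors are known to drive. They were chosen by name as rows of the deposited expression tables, in which each symbol had 1 row, and make up 29 of 44416 genes. RNA was sequenced from the Jurkat line, human leukaemic T cells, as the single clone E6-1, grown in medium with serum. All cells were treated for 30 min, with the solvent DMSO, with 100 µM dieldrin, an organochlorine insecticide, in DMSO, or with 100 µM PMA (phorbol myristate acetate), an activator of protein kinase C, in DMSO. Each treatment had 3 poly(A)-enriched libraries, and 1 further library of DMSO cells and 1 of dieldrin cells were depleted of ribosomal RNA instead.

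For the poly(A) libraries the deposited tables hold the results of comparing each treatment with DMSO. Sequencing depth is therefore unknown for every library, and the spread over single libraries could be read only through the authors' standard errors. Nothing in the labels ties the 3 libraries of a group to separate cultures, and the p-values therefore cover the spread among these libraries, which may be technical. Gene levels are expressed in CPM, that is each gene's mean normalised count after scaling all means to a common total, where 1 CPM corresponds to a mean of 83.7 counts. All 12 T cell markers examined were at or above 1 CPM, between 43.5 and 834 CPM, with LCK the highest. Of the markers of other cells, 1 of 5 for B cells (CD79A, 34.6 CPM) and 1 of 6 for fibroblasts and epithelium (COL1A1, 2.0 CPM) reached 1 CPM, and 0 of 5 did for myeloid cells, for erythroid cells and platelets and for hepatocytes. The immediate-early gene EGR1 rose 39.3-fold with dieldrin and 49.1-fold with PMA by the unshrunken changes of the authors' deposited table.

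Cholesterol is made from acetyl-CoA through mevalonate, isoprenoid diphosphates, squalene and lanosterol. When membranes hold much sterol, the INSIG proteins keep the escort protein SCAP and its cargo, the SREBP precursors, in the endoplasmic reticulum. When sterol is scarce, SCAP carries the precursors to the Golgi, where the site-1 protease encoded by MBTPS1 makes the first of the cuts that release the active factors, which then bind the promoters of the enzymes, of INSIG1 and of SREBF2 itself. Proliferating T cells are known to raise this programme to build membrane.

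Of the 29 genes, 28 reached 1 CPM over the 9 poly(A) libraries, and the median level was 28.7 CPM per kilobase of merged exons. The mevalonate branch held some of the highest levels per length: FDPS, the farnesyl diphosphate synthase, stood at 115 CPM per kilobase, HMGCS1, which makes HMG-CoA, at 98.7 and the phosphomevalonate kinase gene PMVK at 79.6, whereas the mevalonate kinase gene MVK stood at 3.83. Squalene synthase (FDFT1) reached 112 CPM per kilobase. Among the regulators the level per kilobase was 26.4 for SREBF2, 11.3 for SREBF1, 10.3 for MBTPS1 and 9.61 for SCAP. The paired INSIG genes lay far apart, INSIG1 at 65.8 and INSIG2 at 4.61 CPM per kilobase. Lanosterol demethylase (CYP51A1), an enzyme that every sterol-making cell needs, was at 0.187 CPM per kilobase, a mean of 56.3 normalised counts. CYP51A1 overlaps LRRD1, annotated on the same strand at 9.05 counts, and CTB-161K23.1 on the opposite strand at 6.0 counts. The sources used here do not say how counting treated such overlaps, which makes the level of CYP51A1 uncertain, as are those of genes with near-identical pseudogene copies, such as FDPS and HSD17B7.

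**Figure D1:**
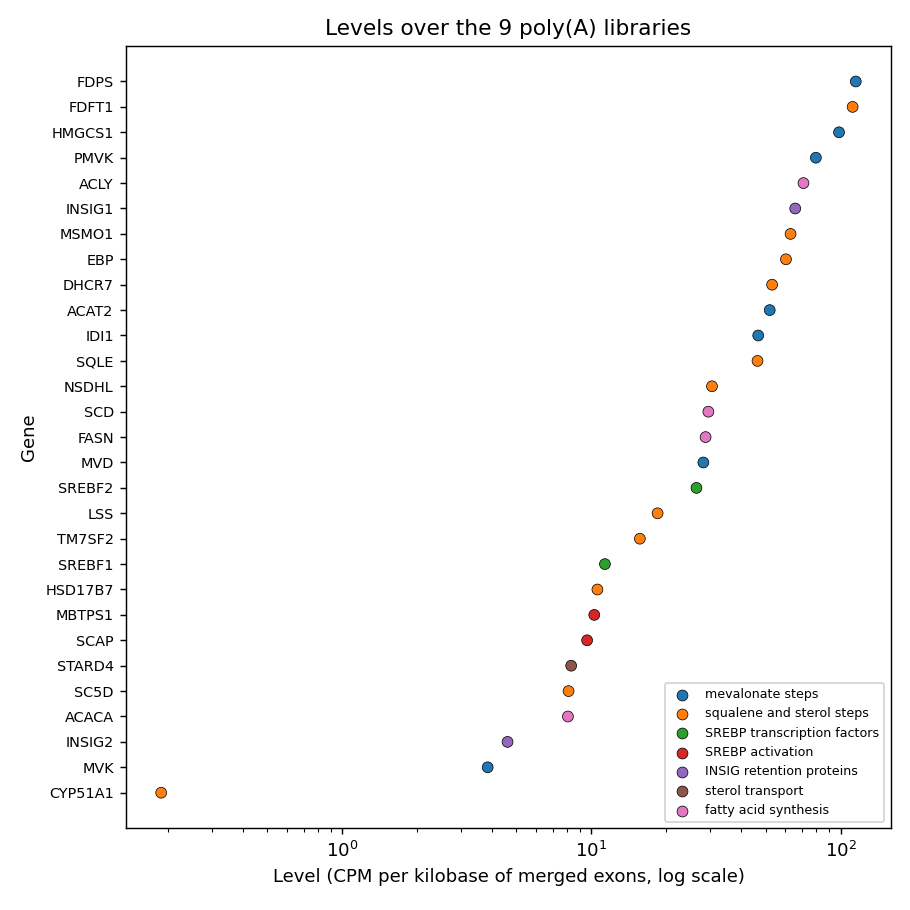
Level of each of the 29 genes in CPM per kilobase of merged exons (horizontal log axis), from the mean over the 9 poly(A) libraries, coloured by role. Most genes lie between 3.83 (MVK) and 115 (FDPS), with CYP51A1 apart at 0.187.

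The promoters of 5 genes that the results below turn on are shown, each as the 250 bases before the transcript start in RefSeq (GRCh38.p14). INSIG1 (chr7:155297628-155297877, forward strand), HMGCS1 (chr5:43313413-43313662, reverse), SC5D (chr11:121292521-121292770, forward), SREBF2 (chr22:41832855-41833104, forward) and SCAP (chr3:47475942-47476191, reverse) are written 5′ to 3′ on the gene's strand. Capitals mark matches, on either strand, to 4 motifs: the sterol regulatory element TCACNCCAC, the E-box CACGTG, the CCAAT box of NF-Y (CCAAT) and the GC box of Sp1 (GGGCGG), all sequences that SREBPs or their partner factors are known to bind.
INSIG1: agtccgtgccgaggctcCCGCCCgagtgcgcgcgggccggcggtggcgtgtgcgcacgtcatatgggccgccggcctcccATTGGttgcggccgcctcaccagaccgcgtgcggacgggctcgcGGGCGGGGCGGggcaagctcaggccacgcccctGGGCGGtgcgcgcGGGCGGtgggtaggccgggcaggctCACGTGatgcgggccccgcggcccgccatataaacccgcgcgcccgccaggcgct
HMGCS1: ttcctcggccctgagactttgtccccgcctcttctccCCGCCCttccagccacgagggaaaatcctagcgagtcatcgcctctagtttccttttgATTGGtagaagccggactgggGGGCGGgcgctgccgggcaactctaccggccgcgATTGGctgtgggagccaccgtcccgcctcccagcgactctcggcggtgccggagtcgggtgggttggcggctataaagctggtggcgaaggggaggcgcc
SC5D: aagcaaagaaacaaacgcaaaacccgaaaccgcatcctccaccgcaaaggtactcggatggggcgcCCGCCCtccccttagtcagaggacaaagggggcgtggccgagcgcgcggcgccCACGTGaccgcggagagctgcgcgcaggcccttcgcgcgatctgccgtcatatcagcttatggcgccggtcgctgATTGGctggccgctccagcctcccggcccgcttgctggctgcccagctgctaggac
SREBF2: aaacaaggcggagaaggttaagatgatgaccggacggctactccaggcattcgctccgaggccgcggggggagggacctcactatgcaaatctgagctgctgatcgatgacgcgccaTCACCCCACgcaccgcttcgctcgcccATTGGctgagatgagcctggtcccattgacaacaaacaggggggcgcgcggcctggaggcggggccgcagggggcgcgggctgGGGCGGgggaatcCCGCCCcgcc
SCAP: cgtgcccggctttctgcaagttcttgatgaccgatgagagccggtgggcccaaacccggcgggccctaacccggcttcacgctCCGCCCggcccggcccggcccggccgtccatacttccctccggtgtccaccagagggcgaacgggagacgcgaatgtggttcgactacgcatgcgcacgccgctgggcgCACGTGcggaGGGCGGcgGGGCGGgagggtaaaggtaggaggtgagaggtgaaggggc

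A promoter sequence was matched for 25 of the 29 genes. The sterol regulatory element was found in 1 of these 25 windows, that of SREBF2, at positions -133 to -125 from the start, and in 0.849% of 8713 promoters of genes of at least 1 CPM. An E-box was found in 3 of 25, INSIG1, SC5D and SCAP, against 9.43% of those promoters. A CCAAT box was present in 17 of 25 windows (68%) against 35.7%, and a GC box in 23 of 25 (92%) against 68.3%. Over all 27305 promoters of the same length, the shares were 0.875% for the sterol element, 6.49% for the E-box, 33% for the CCAAT box and 42.3% for the GC box. Among the 5 windows shown, the one overlap of matches is between neighbouring GC boxes of INSIG1. These matches describe the letters of the windows and say nothing of binding in these cells.

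With dieldrin, SCAP fell and 28 of the 29 genes did not pass the test. The genes that had the next smallest p-values were INSIG1, higher, and FASN and SREBF2, lower, none of them past the threshold. By the authors' deposited table, an adjusted p under 0.05 was reached by 1 of the 29 genes, in the lower direction, against 2.3% of the 19280 genes tested, 1.28% being higher and 1.02% lower. Before adjustment, 3 of 29 had a p under 0.05, against 8.36% of all genes. The 29 changes had a median of -0.03 on the unshrunken log2 scale, beside 0.00191 over all genes tested, and 14 were above 0.

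SCAP (ENSG00000114650, hg19 chromosome 3, 47455203 to 47518616), the escort of the SREBPs, had an implied mean of 5784 normalised counts with DMSO, 4062 with dieldrin and 5688 with PMA. The dieldrin mean was the low one, and those of DMSO and PMA lay close together. Its change with dieldrin was 0.702-fold, or -0.51 in unshrunken log2 units with a 95% interval from -0.77 to -0.25. For SCAP the authors' deposited table gives a shrunken change of -0.38 ± 0.10 (standard error) and 0.00959 as the adjusted p. The other SREBP genes also had lower means with dieldrin, within their error. SREBF2, which encodes the factor most tied to cholesterol synthesis, had a change of -0.42 (interval -0.85 to 0.01), and the authors' deposited table sets its adjusted p at 0.647. SREBF1, whose products drive mainly fatty acid genes, had -0.30 (interval -0.65 to 0.06), with 0.794 in the authors' deposited table. MBTPS1 was held to a narrow interval, from -0.19 to 0.08 around -0.05.

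INSIG1 (ENSG00000186480, hg19 chromosome 7, 155089486 to 155101945) had the highest dieldrin change of the 29 genes. Its implied means were 14555 normalised counts with DMSO, 23146 with dieldrin and 22651 with PMA, both treated means above that of DMSO by a like amount. The dieldrin change was 1.59-fold, 0.67 in log2 units with an interval from 0.17 to 1.17, and the authors' deposited table gives an unadjusted p of 0.00814 and an adjusted p of 0.209. INSIG2, the other retention gene, stood at -0.07 (interval -0.26 to 0.12).

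Of the 18 enzymes from acetyl-CoA to cholesterol, 11 had a higher and 7 a lower mean with dieldrin, and 0 passed. Along the mevalonate steps HMGCS1 was at 0.32, the isomerase gene IDI1 at 0.29 and MVK at 0.15, while FDPS (0.06), PMVK (0.03), the acetyl-CoA acetyltransferase gene ACAT2 (-0.04) and the decarboxylase gene MVD (-0.07) lay nearer to 0. Among the squalene and sterol steps the highest were CYP51A1 (0.49), the methyl sterol oxidase gene MSMO1 (0.30), the sterol desaturase gene SC5D (0.23) and the ketoreductase gene HSD17B7 (0.20). Squalene epoxidase (SQLE, 0.04), the dehydrogenase NSDHL (0.00189), FDFT1 (-0.03), the last reductase of the route DHCR7 (-0.06) and the isomerase EBP (-0.10) were close to 0. The lowest were the sterol reductase gene TM7SF2 (-0.22) and the lanosterol synthase gene LSS (-0.26). The sterol carrier gene STARD4 was at 0.16. In fatty acid synthesis FASN, the synthase itself, had the lowest change of the 29 genes, -0.72 with an interval from -1.42 to -0.02. Its adjusted p was 0.552 in the authors' deposited table. Citrate lyase (ACLY, -0.06), acetyl-CoA carboxylase (ACACA, -0.04) and the desaturase gene SCD (0.07) stood near 0.

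**Figure D2:**
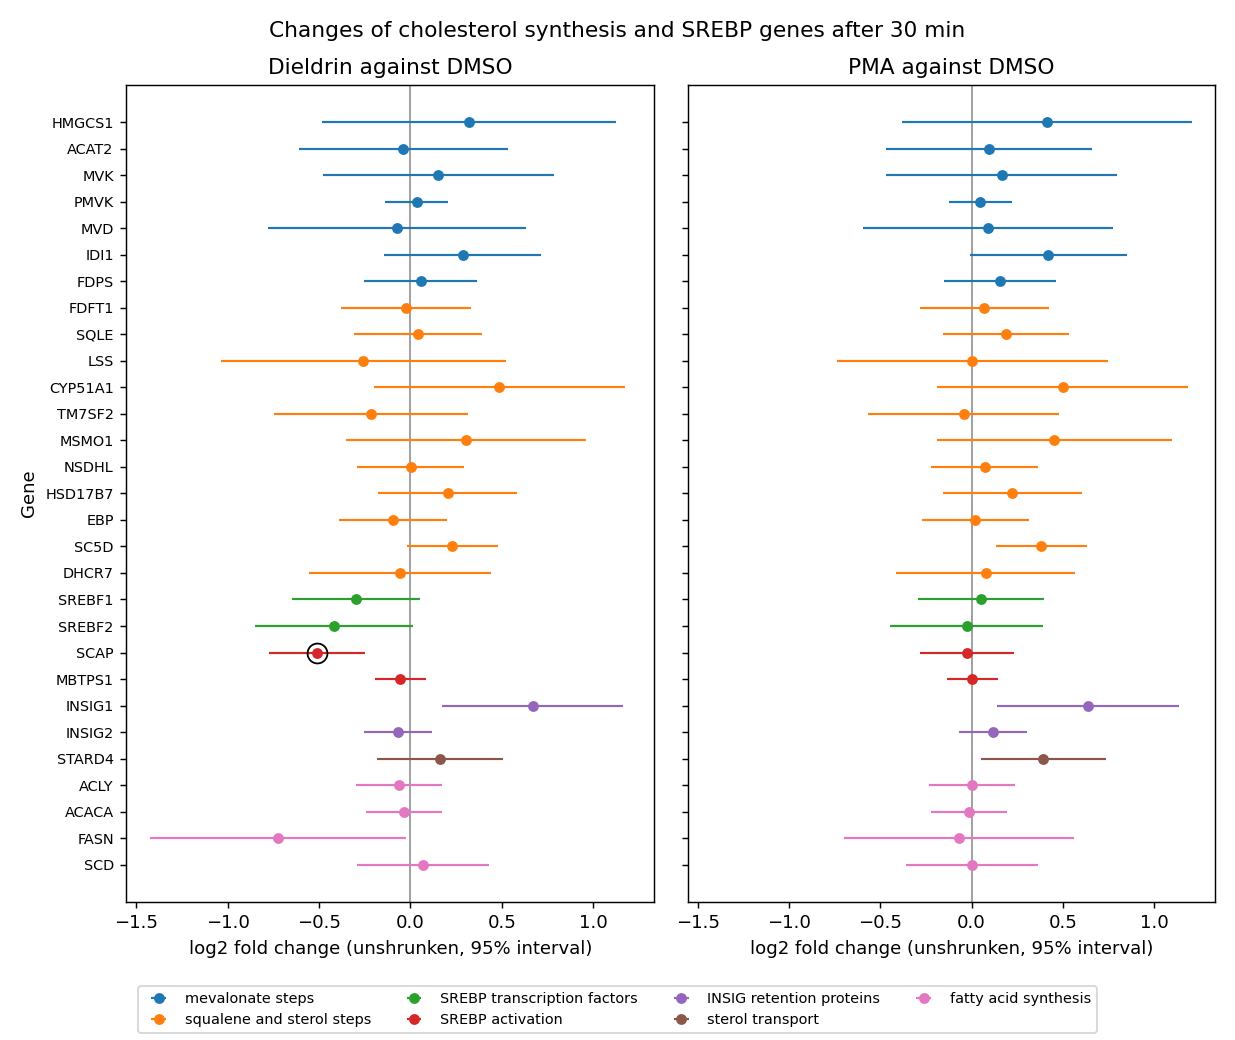
Unshrunken log2 fold change of each gene against DMSO (points) with its 95% interval (bars), for dieldrin on the left and PMA on the right, coloured by role. The ringed point, SCAP with dieldrin at -0.51, is the one change with an adjusted p under 0.05; INSIG1 lies at 0.67 and 0.64, and most PMA points lie to the right of 0.

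With PMA, none of the 29 genes passed the authors' test, while 24 of them had a mean above that of DMSO. The genes of smallest p were SC5D, INSIG1, STARD4 and IDI1, all higher. By the authors' deposited table, an adjusted p under 0.05 was reached by 0 of 29, against 0.619% of 17612 genes tested, 0.528% being higher and 0.0908% lower. Before adjustment, 3 of 29 had a p under 0.05, all higher, against 3.73% of all genes. The median unshrunken log2 change was 0.08 beside -0.00435 over all genes tested, of which 48.1% were above 0. All 7 mevalonate genes and 10 of the 11 squalene and sterol genes had higher means, with medians of 0.16 and 0.08. The 4 fatty acid genes lay between -0.07 and 0.00263.

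SC5D (hg19 chromosome 11, 121163162 to 121179403) had implied means of 3258 normalised counts with DMSO, 3819 with dieldrin and 4246 with PMA, the PMA mean being the highest. Its PMA change was 1.30-fold, 0.38 in log2 units with an interval from 0.13 to 0.63, and the authors' deposited table gives an adjusted p of 0.240. INSIG1 was at 1.56-fold with PMA, 0.64 in log2 units (interval 0.14 to 1.14), with 0.648 as its adjusted p by the authors' deposited table. STARD4, which moves sterol between membranes, was at 0.39 (interval 0.05 to 0.73), and the authors' deposited table sets its adjusted p at 0.924. IDI1 was at 0.42 (interval -0.01 to 0.85), and CYP51A1, at its low count, at 0.50 (interval -0.19 to 1.19). MSMO1 was at 0.45 and HMGCS1 at 0.41, each with an interval that spans 0. SCAP did not share the fall seen with dieldrin, with a PMA change of -0.02 (interval -0.28 to 0.24).

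The PMA counts turn on the width given to the test statistic. Over genes of at least 1 CPM its spread by the interquartile range was 0.645 with PMA and 0.928 with dieldrin, against 1 for a standard normal. With the PMA statistic divided by that spread, SC5D (adjusted p 0.000264), INSIG1 (0.00520) and STARD4 (0.0176) passed by Benjamini-Hochberg adjustment, 3 of 29, all higher, against 3.54% of all genes (2.15% higher). The same step left SCAP the one call with dieldrin, against 2.91% of all genes (1.64% higher).

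Dieldrin and PMA share their DMSO libraries, so each change is given side by side above. By the difference of the shrunken changes, tested over 17612 genes with Benjamini-Hochberg adjustment, 0 of the 29 genes differed between the treatments, against 0.494% of all genes; before adjustment 1 of 29 had a p under 0.05, SCAP, against 2.71% of all genes. For SCAP the difference, dieldrin minus PMA, was -0.49 in unshrunken log2 units. Its adjusted p was 0.882 by the test of the shrunken changes and 0.918 by the same test of the unshrunken changes. Both leave out the covariance that the shared DMSO libraries give. With a correlation of 0.5 between the changes the adjusted p of SCAP was 0.0246, and by a direct contrast of the treated groups, in which DMSO cancels, it was 0.0243 with an interval of the difference from -0.75 to -0.22, 1 of 29 genes in each case, against 1.52% and 1.44% of all genes. The direct contrast was chosen after seeing the data. For INSIG1 the difference was 0.03 with an interval by the direct contrast from -0.47 to 0.53. FASN had a difference of -0.65 (interval -1.32 to 0.01) and SREBF2 one of -0.39 (interval -0.82 to 0.03).

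The sterol genes varied more from library to library than most genes of like abundance. The unshrunken change divided by the Wald statistic is the standard error before shrinkage, from which the coefficient of variation (CV) among libraries of a group was worked out; it is the authors' fitted dispersion, common to all groups, and not a value measured per library. Over the 28 genes of at least 1 CPM the median CV was 15.5%, with a range from 5.94% to 34.6%. The 7241 genes whose means lie in the same range, from 1524 to 48727 normalised counts, had a median of 7.40% and a 90th percentile of 11.2%. Of the 28 genes, 26 were above that median and 22 above that percentile. HMGCS1 had the highest CV, 34.6%, at a mean of 38848 normalised counts. LSS followed with 33.0%, MVD with 30.1%, FASN with 28.8%, MSMO1 with 28.2% and MVK with 27.3%. These are enzymes spread over the mevalonate, sterol and fatty acid steps. The CV was low for MBTPS1 (5.94%), PMVK (7.36%), INSIG2 (7.72%) and ACACA (8.90%), and SCAP was at 11.2%. The mevalonate steps had a median CV of 24.6%, the squalene and sterol steps one of 16.4% and the fatty acid genes one of 13.0%. Which libraries set this spread cannot be read from tables of comparisons, and whether it follows culture, batch or handling was not tested.

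**Figure D3:**
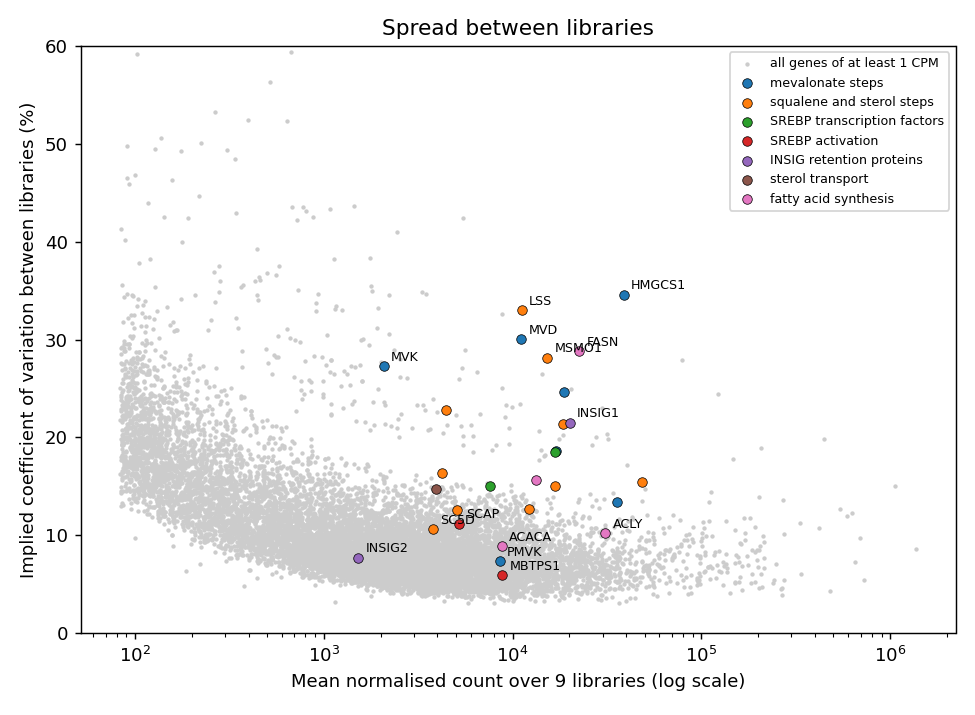
Implied coefficient of variation between libraries (vertical axis, %) against the mean normalised count over 9 libraries (horizontal log axis), for genes of at least 1 CPM in grey and for 28 of the 29 genes in colour by role. The vertical axis ends at 60%, which leaves 23 grey genes outside; HMGCS1 (34.6%), LSS (33.0%) and MVD (30.1%) stand well above the bulk of genes, and MBTPS1 (5.94%) within it.

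This spread sets what the comparisons could detect. A dieldrin change had to reach 1.34 in log2 units to pass the authors' threshold for HMGCS1 and 0.23 for MBTPS1, with a median of 0.60 over the 28 genes beside 0.35 over all genes of at least 1 CPM. With PMA the values were 1.46 for HMGCS1, 0.26 for MBTPS1, 0.66 for the median of the 28 genes and 0.39 for all genes. The 95% intervals of 24 of 28 genes with dieldrin, and of 25 of 28 with PMA, lay within a 2-fold change in either direction. INSIG1, at 0.67 with dieldrin, would have had to reach 0.82, and FASN, at -0.72, a size of 1.16.

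The changes of the 28 genes ran against the GC content of their transcripts. Across the 28 genes, Spearman's rho between the log2 change and the GC content of the longest coding transcript was -0.725 with dieldrin (Pearson's r -0.677) and -0.667 with PMA (r -0.679). Across 11094 genes of at least 1 CPM the rho was -0.198 (r -0.0857) and -0.251 (r -0.0783). These values are across genes that share the same libraries, not across samples, and are given as a description. The 6 genes under 45% GC, among them STARD4 (34.2%), MSMO1 (38.1%), SC5D (38.6%) and HMGCS1 (40.2%), had a median of 0.26 with dieldrin and 0.40 with PMA. With dieldrin 5 of these 6 were above 0, and INSIG2 (36.9%) was at -0.07. The 11 genes at or above 55%, among them SCAP (62.3%), SREBF1 (64.7%) and FASN (65.3%), had a median of -0.22 with dieldrin and 0.05 with PMA. In this band 3 of 11 were above 0 with dieldrin, FDPS (55.1%), MVK (59.4%) and PMVK (59.5%). All genes of at least 1 CPM had medians of 0.01 and -0.03 in the low and the high band with dieldrin, and of 0.02 and -0.02 with PMA. The part of base composition in the fall of SCAP or in the other changes was not tested.

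**Figure D4:**
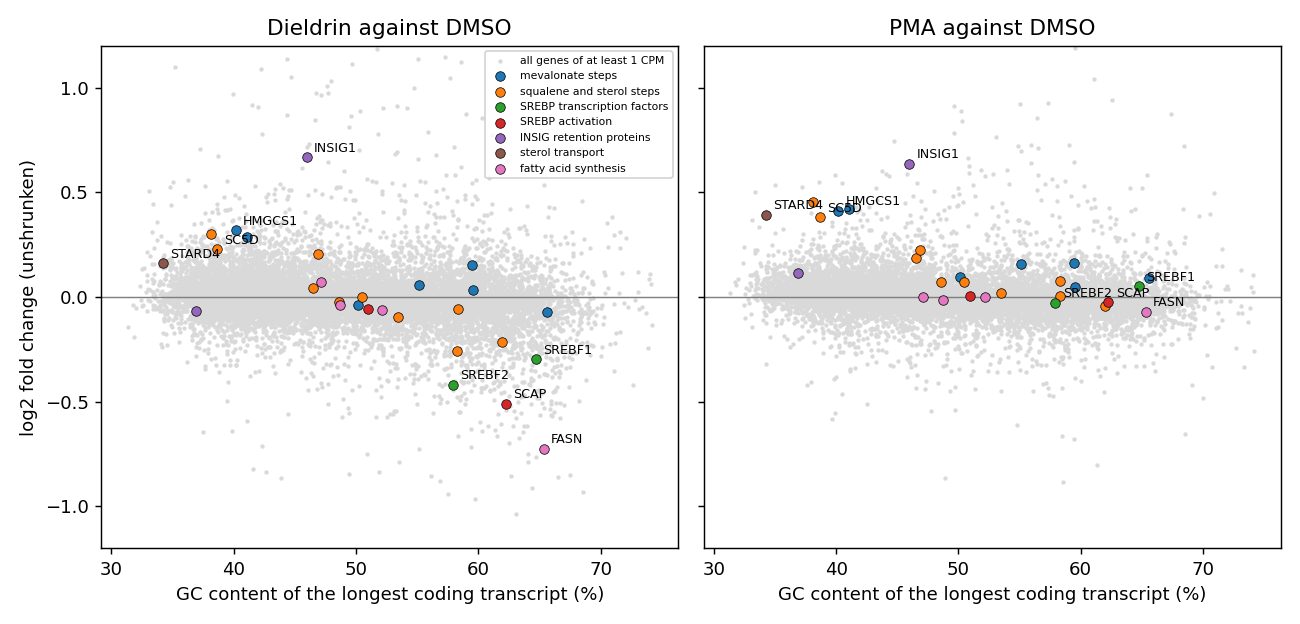
Unshrunken log2 fold change (vertical axis) against the GC content of the longest coding transcript (horizontal axis, %), for dieldrin on the left and PMA on the right, with genes of at least 1 CPM in grey and the 28 genes in colour by role. The vertical axes end at 1.2 in each direction, leaving 42 grey genes outside with dieldrin and 29 with PMA; with dieldrin the coloured points run from INSIG1 and HMGCS1 above 0 to SCAP (-0.51) and FASN (-0.72) below it.

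Transcripts annotated across the sterol genes were looked at as well, chosen after their values were seen. Of the 29 genes, 14 overlap another gene of the tables and 8 overlap one of at least 1 CPM. Of the 24 overlapping genes, 16 were adjusted with dieldrin and 14 with PMA. The authors' test called 2 of these 16 with dieldrin, against 2.3% of all genes, and 2 of these 14 with PMA, against 0.619%, RP5-821D11.7 and RNU7-163P in each case, all higher. The comparisons share their DMSO libraries. RP5-821D11.7 (ENSG00000184068, hg19 chromosome 22, 42227219 to 42230669) is annotated on the strand opposite to SREBF2 and spans its start at 42229109. Its implied means were 87.1 normalised counts with DMSO, 325 with dieldrin and 188 with PMA. It was thus highest with dieldrin, 3.73-fold, 1.90 in log2 units (interval 1.44 to 2.36), with 2.1e-13 as its adjusted p in the authors' deposited table. With PMA it was at 2.16-fold, 1.11 in log2 units (interval 0.61 to 1.62), with 0.00382 as its adjusted p by the authors' deposited table. Dieldrin and PMA did not differ past the threshold for RP5-821D11.7 (adjusted p 0.717, or 0.0540 by the direct contrast). SREBF2 on the other strand did not pass with either treatment; its means were 18366 normalised counts with DMSO, 13738 with dieldrin and 18033 with PMA. The libraries are stranded, but whether the counting used strand is not given, so reads of the overlapping parts of SREBF2 and RP5-821D11.7 cannot be assigned with certainty.

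RNU7-163P (ENSG00000238924, hg19 chromosome 10, 1088233 to 1088295), a copy of the U7 small nuclear RNA gene by its name, lies within IDI1 on the same strand. It was low, with implied means of 17.6 normalised counts with DMSO, 54.1 with dieldrin and 48.9 with PMA. The authors' deposited table gives it a log2 change of 1.62 with an adjusted p of 0.00177 with dieldrin and 1.47 with an adjusted p of 0.0319 with PMA. Its reads may belong to IDI1 transcripts or to other U7 copies, which these tables cannot resolve.

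The rRNA-depleted libraries gave a list of sites of divergent transcription for DMSO and one for dieldrin, of 113689 and 118474 sites on hg19. With 1 library per list there is no test. A site within 1 kb of the annotated start was present at 24 of the 29 genes with DMSO (82.8%) and at 25 with dieldrin (86.2%), beside 77% and 76.9% of 12853 genes of at least 1 CPM. The same 24 genes had one in both lists, EBP had one with dieldrin alone, and CYP51A1, FDFT1, NSDHL and TM7SF2 had none in either. Of the 40 start sites in the DMSO list 33 overlap a dieldrin site by at least 1 bp, and of the 47 in the dieldrin list 33 overlap a DMSO site, or 82.5% and 70.2%. Over the start sites of all genes of at least 1 CPM the shares were 72.2% of 14152 and 71.8% of 14336, and over the whole lists 43.7% and 41.8%. At INSIG1 the upstream site ran from positions -918 to -213 from the start with DMSO and from -1017 to -131 with dieldrin. Downstream of its start the DMSO site was 52 bp long, and a separate site of 1282 bp in the dieldrin list began 110 bases past the start. At SCAP the DMSO list held a site from 827 to 1302 bases past the start and one upstream, and the dieldrin list one of 50 bp from 81 to 130 bases past it. The downstream DMSO site of SCAP also overlaps a dieldrin site that lies past the 1 kb window.

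Sites inside gene bodies were split by the strand of the gene. The 15 genes on the forward strand held 19 sites with DMSO and 18 with dieldrin, or 0.0537 and 0.0509 per kilobase, and no more than 3 in any gene. The 14 genes on the reverse strand held 254 and 294, or 0.347 and 0.402 per kilobase, from 4 to 44 a gene with DMSO. Genes of at least 1 CPM had 0.0749 sites per kilobase on the forward and 0.183 on the reverse strand with DMSO, and 0.0734 and 0.192 with dieldrin, so the split by strand runs through the whole lists. Among the reverse-strand genes HMGCS1 went from 25 to 38 sites, SCAP from 19 to 29, STARD4 from 15 to 22 and CYP51A1 from 7 to 17, while MBTPS1 went from 29 to 23. In all, 12 genes had more, 8 fewer and 9 as many sites with dieldrin. These counts compare 2 libraries, not the treatments.

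**Figure D5:**
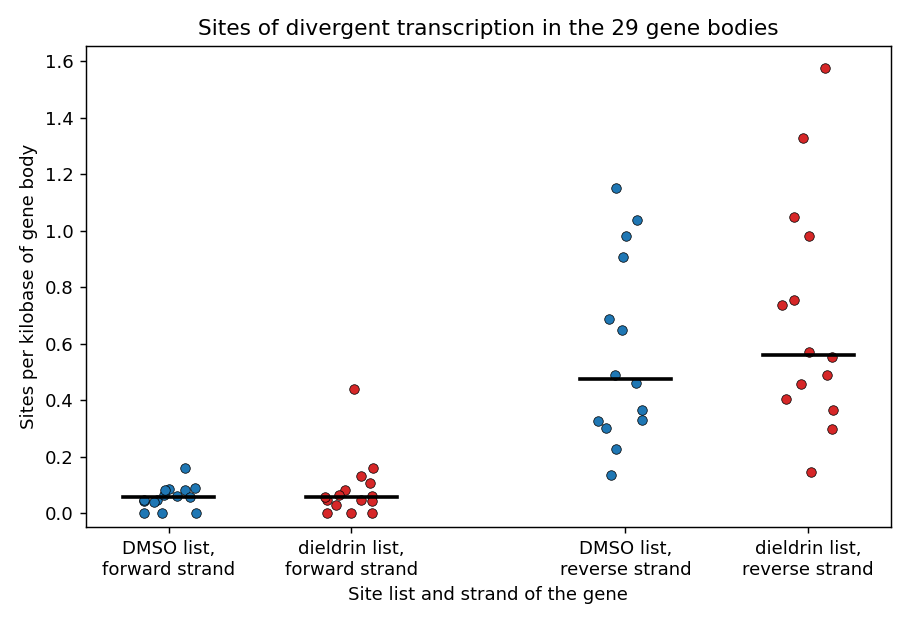
Sites of divergent transcription per kilobase of gene body (vertical axis) for each of the 29 genes (points), by list and strand of the gene; lines are medians and points are spread sideways for legibility. The 15 forward-strand genes lie near 0 in both lists, with medians of 0.0565, and the 14 reverse-strand genes lie higher, with medians of 0.474 and 0.561.

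Other genes of the pathway, in lists chosen with earlier results known, had 1 call in all. Over all genes tested, 2.3% passed with dieldrin (1.02% lower) and 0.619% with PMA. Counts of 0 or 1 in lists of this size lie near those shares and set no list apart. Of 22 genes tested for sterol export, uptake and the liver X receptors, 0 rose and 1 fell with dieldrin, and 0 passed with PMA. The gene that fell was NPC1, which exports cholesterol from lysosomes, at -0.32 in log2 units (interval -0.50 to -0.14), and the authors' deposited table sets its adjusted p at 0.0274. LIPA, the lysosomal acid lipase gene, and ABCG1, a sterol exporter, had changes of -0.11 and -0.24 with dieldrin, and ABCG4 and MYLIP had changes of -0.89 and 0.29 with PMA, all within their error. ABCG4 was below 1 CPM, at 0.175 CPM. Of 15 further genes that control SREBPs, 0 passed with either treatment. Among the smallest p-values were those of the ubiquitin ligase gene RNF145, at -0.21 with dieldrin (interval -0.33 to -0.08) (adjusted p 0.0504 in the authors' deposited table, 0.0382 with adjustment over genes of at least 1 CPM) and of the deubiquitinase gene USP19 (-0.34). RNF139 and FBXW7 of that list had changes of 0.15 and 0.08 with PMA.

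Of 14 other genes of sterol synthesis and prenylation, 0 passed with either treatment, and 0 had an unadjusted p under 0.05 in the authors' test. Over all genes tested, 8.36% had an unadjusted p under 0.05 with dieldrin and 3.73% with PMA. DHDDS, COQ2 and C14orf1 had changes of 0.08, -0.16 and -0.15 with dieldrin, and COQ2, FNTA and PGRMC1 of -0.12, 0.05 and -0.05 with PMA. Of 17 other fatty acid genes tested, 0 passed with either treatment, and before adjustment 1 had a p under 0.05 with dieldrin and 0 with PMA. MID1IP1, a partner of acetyl-CoA carboxylase, was at 0.28 with dieldrin, ACSL1 at -0.13 and ACSS2 at -0.32, and ACSL4, ELOVL6 and ACACB were at 0.07, 0.19 and -0.09 with PMA. ELOVL6 was also below 1 CPM, at 0.913 CPM. The median CV was 6.32% in the list of SREBP control, 7.63% in that of sterol synthesis and prenylation, 7.64% in that of export and uptake and 8.62% in the fatty acid list, near the 8.81% of all genes of at least 1 CPM and below the 15.5% of the 28 genes.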

How the data were processed

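Libraries of Jurkat cells, 9 poly(A)-enriched in 3 groups and 2 rRNA-depleted, were analysed from deposited tables. Per the submitters' processing notes, the tools were STAR and edgeR and the build hg19; for counting, strand use and the site caller the sources used here give nothing. Per the file headers, the authors' tables give a mean normalised count (signal), shrunken and unshrunken log2 fold changes, a Wald statistic (score), and p-values, under column names usual for DESeq2.

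The authors' adjusted p (threshold 0.05) was taken as deposited. Group means came from the mean over 9 libraries and both unshrunken changes. The unshrunken standard error, the unshrunken change over the statistic, gave 95% intervals and the CV. The prior width it implies had quartiles of 0.231 and 0.232 in both tables, and over the 28 genes the CV from the 2 tables differed by at most 3.0 percentage points. No model was fitted to counts. The difference between treatments was a two-sided normal test. It was tried on simulated counts whose dispersions were taken as known, so that trial could not show errors from estimating the dispersion. Lengths and GC came from GENCODE v29, matched by ID for 28 genes and by symbol for 1, promoters from RefSeq.

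All 29 genes are named. Genes of the other lists are the 3 of smallest p per comparison, some of which are not reported here. The genes and lists were chosen with earlier results of these data known. Alternatives covered thresholds, adjustment, scaling of the statistic, covariance and site windows. Work was done in Python 3.11.15 with scipy 1.17.1, pandas 2.3.3, matplotlib 3.10.9 and numpy 2.4.6.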

Additional observations from a re-analysis of the deposited data

How the results depend on the processing

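The dieldrin count was 1 of 29 genes, SCAP, at thresholds of 0.01 and 0.1, with adjustment over genes of at least 1 CPM or over all genes with a p-value, and with the statistic divided by its spread. The PMA count of 0 held under the first 4 of these settings and became 3 with the rescaled statistic. The count of genes differing between dieldrin and PMA was 0, and 0 with unshrunken changes or genes of at least 1 CPM, but 1 with a correlation of 0.5 and 1 by the direct contrast, in each case SCAP. The median level was 37.2 CPM per kilobase with the longest transcript in place of merged exons, against 28.7. With shrunken in place of unshrunken changes the median of the 29 genes was -0.0146 with dieldrin, against -0.0252, and 0.0414 with PMA, against 0.0767. Over the 28 genes of at least 1 CPM these medians were -0.0306 and 0.0741. Counts of genes with a start site moved by less than 1.5 times under the other windows. No paired analysis was possible because the tables hold comparisons and no values per library, and for the same reason no library could be left out in turn.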
